A study of Mus musculus with 12 samples.

Results

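Among 7 mouse lung tumors profiled by RNA sequencing, 4 carried a high level of Hoxb8 transcript and 3 carried little or none, and these 2 sets of tumors are compared here. A tumor was placed in the Hoxb8-high set if the deposited value of Hoxb8 (ENSMUSG00000056648) was above 100 and in the Hoxb8-low set if it was below 100. Of the 12 samples of the series the other 5 are normal lungs, which are shown beside the tumors as the level of normal tissue. The Hoxb8-high set was tumor 2 (title number 156) and tumors 5, 6 and 7 (all title number 201). The Hoxb8-low set was tumor 1 (title number 153) and tumors 3 and 4 (both title number 159). By its title the study made mouse lung cancer models by CRISPR/Cas9 mutagenesis without a virus, but the labels of the samples give no edited gene, strain, age or sex. What the title number stands for is not given either. The 4 numbers fall 2 to each set and none is in both, so the title number and the Hoxb8 level cannot be told apart, and tumors that share a number may not be independent. The titles of tumors 1 and 7 carry the Spanish word for trachea, 1 tumor in each set.

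Because the sets were chosen by Hoxb8 itself, the levels of Hoxb8 and of the other genes of the Hoxb cluster are given below as a description, without a test. Values are normalized read counts, and between 13093843 and 24217633 reads were assigned to genes in each tumor (11126432 to 17032234 in each normal lung). At these depths 3 reads correspond to a value of up to 3.57 in a tumor and 4.85 in a normal lung, and smaller values are not ordered here because so few reads cannot be told apart by counting error alone. All 7 tumors had a marker of a neuroendocrine lung tumor: the secretory granule protein gene Chga was between 11821 and 58490.2 in tumors and 3.23 to 10.3 in normal lung. The tumors are bulk tissue, in which fewer cells of a type and less RNA per cell cannot be told apart.

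Hox genes encode homeodomain transcription factors that give cells their position along the body axis. They lie in 4 clusters, and the order of the genes along a cluster follows the order of their expression domains from head to tail, with the genes at the 3′ end expressed farthest forward. Lung mesenchyme is known to express genes of the 3′ and middle part of the Hoxb cluster. Hox proteins bind DNA together with Pbx and Meis cofactors. Retinoic acid, through its receptors, and Cdx factors are known activators of Hox clusters. Polycomb complexes keep clusters silent through methylation of histone H3 lysine 27, and Trithorax proteins oppose them.

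The Hoxb8 values just inside and just outside the threshold of 100 were 209 in tumor 6 and 14.4 in tumor 4. In the Hoxb8-high tumors 2, 5, 6 and 7 the normalized count of Hoxb8 was 16439.6, 6523, 209 and 826. In the Hoxb8-low tumors 1, 3 and 4 it was 0, 0 and 14.4, and in the 5 normal lungs 23.2, 26.9, 17.8, 40.9 and 17.2. All 4 Hoxb8-high tumors were thus above the normal lungs and all 3 Hoxb8-low tumors below them, and the 4 high tumors spanned a 78.7-fold range among themselves. The difference between the means of log2(normalized count + 1) in the 2 sets was 9.71, the largest in size of the 23305 genes compared. That rank is no finding of its own, because Hoxb8 chose the sets.

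The 250 bases before the annotated start of Hoxb8 and of Hoxb4 are shown because per kb of exon Hoxb8 was the larger of these 2 transcripts in the high set and Hoxb4 in the low set, as described below. Both sequences are RefSeq's for build GRCm38.p6, on the plus strand of chromosome 11, at chr11:96281655-96281904 and chr11:96318017-96318266, and each ends at the base before the start. No gene of GENCODE M21 overlaps either window. The submitters' processing notes name a later build, so these positions locate the sequences and not the reads. Capitals mark every match, on either strand, to 4 searched strings. The composite Hox-Pbx site was searched as TGATNNAT, and the core of a Cdx site was searched as TTTATG. The half-site of retinoid receptors was searched as AGGTCA, and the TATA box was searched with the letters TATAAA.
Hoxb8: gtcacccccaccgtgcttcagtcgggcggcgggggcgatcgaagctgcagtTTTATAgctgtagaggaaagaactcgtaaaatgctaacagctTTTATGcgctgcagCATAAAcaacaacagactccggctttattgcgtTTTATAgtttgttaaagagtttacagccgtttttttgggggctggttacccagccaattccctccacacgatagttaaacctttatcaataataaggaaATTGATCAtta
Hoxb4: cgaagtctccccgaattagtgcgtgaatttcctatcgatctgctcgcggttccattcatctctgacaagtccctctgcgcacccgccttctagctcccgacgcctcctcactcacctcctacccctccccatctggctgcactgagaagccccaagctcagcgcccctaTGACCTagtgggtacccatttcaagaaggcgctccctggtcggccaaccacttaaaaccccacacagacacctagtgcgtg
The Hoxb8 window held 1 match to the Hox-Pbx string, 2 to the Cdx string and 2 to the TATA string, and the Hoxb4 window held 1 match to the retinoid half-site and none to the other strings. Over all 32851 listed mouse promoter windows of the same length, 7.68% held the Hox-Pbx string, 10.8% the Cdx string, 14.0% the half-site and 12.4% the TATA string. The Hoxb8 window was 44.4% G and C with 12 CpG pairs and the Hoxb4 window 58% with 14, beside medians of 52.4% and 6 over all windows. These are matches of letters and no binding was measured.

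Toward the 5′ end of the cluster from Hoxb8, Hoxb9 specifies more posterior segments. Its normalized count was 10807, 352, 8.76 and 38.4 in tumors 2, 5, 6 and 7, and 0 in each of the 3 Hoxb8-low tumors. In normal lung it was from 0 to 1.62, under the value of 3 reads. The mean over the Hoxb8-high tumors was at least 942-fold higher than the value of 3 reads in the library of the low set where 3 reads are worth most. Tumor 2 alone held most of that level, and the high tumors spanned 1234-fold, so Hoxb9 was the most uneven of the 5 Hoxb genes that were expressed. Hoxb13, at the far 5′ end, was from 0 to 2.38 in the high tumors and from 0 to 0.898 in the low tumors, under the value of 3 reads in each.

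On the 3′ side of Hoxb8, Hoxb7 is its immediate neighbour among the genes analysed. Hoxb7 was 3021, 776, 32.3 and 131 in tumors 2, 5, 6 and 7 and 0.633, 1.98 and 3.59 in tumors 1, 3 and 4. Normal lungs were from 35.5 to 107, so tumor 6, at 32.3, was below every normal lung while the other 3 high tumors were above them all. The difference between the sets was 6.82 on the log2 scale.

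Hoxb4 belongs to the part of the cluster used in lung, and in normal lung it was 744, 774, 827, 872 and 876, or 819 ± 58.6 (SD, n = 5). It was 3470.2, 2473, 163 and 483 in tumors 2, 5, 6 and 7 and 31.0, 13.9 and 72.7 in tumors 1, 3 and 4. The 3 low tumors were all below the normal lungs, and the high tumors lay on both sides of them, 2 above and 2 below. The log2 difference between the sets was 4.79, with no overlap.

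Hoxb3 was 517, 929, 40.4 and 96.1 in tumors 2, 5, 6 and 7, 12.7, 0 and 15.3 in tumors 1, 3 and 4 and 29.1 to 94.1 in normal lung. Its difference between the sets was 5.11, and it was the 1 gene of the 5 for which tumor 5, not tumor 2, was highest. Hoxb3 and the noncoding gene Hoxb3os lie on opposite strands over the same bases, and whether counting used the strand is not given in the sources used here, so reads of one may be counted for the other. The same limit holds for Hoxb5os, which runs opposite to coding genes of the cluster. Hoxb1, at the 3′ end, was from 0 to 3.57 in the high tumors, 0 in all low tumors and 0 to 4.3 in normal lung, too few reads for a comparison.

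Noncoding genes of the cluster separated the 2 sets in the same direction. Hoxb5os, a noncoding gene in the middle of the cluster, was 599, 139.9, 10.8 and 44.8 in tumors 2, 5, 6 and 7, 0.633, 0 and 0 in tumors 1, 3 and 4 and 10.3 to 21.5 in normal lung. Hoxb3os was 342, 249, 16.2 and 53.2 in the high tumors, 8.23, 0 and 5.39 in the low tumors and 29.0 to 51.7 in normal lung. The reads assigned to Mir10a, the microRNA gene next to Hoxb4, came to 14.3, 20.2, 5.39 and 3.84 in the high tumors, 0 in all 3 low tumors and 3.23 to 15.5 in normal lung. These libraries were selected for poly-A tails, so a value for Mir10a stands for longer RNA over that locus and not for the mature microRNA, whose sequence (RefSeq, GRCm38.p6, chr11:96317186-96317208, plus strand, seed bases 2 to 8 in capitals) is given to identify it.
miR-10a-5p: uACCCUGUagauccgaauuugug
Mir196a-1, the other microRNA gene of the cluster in the lists, was 0 in every tumor but tumor 2, where it was 2.38, under the value of 3 reads.

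**Figure D1:**
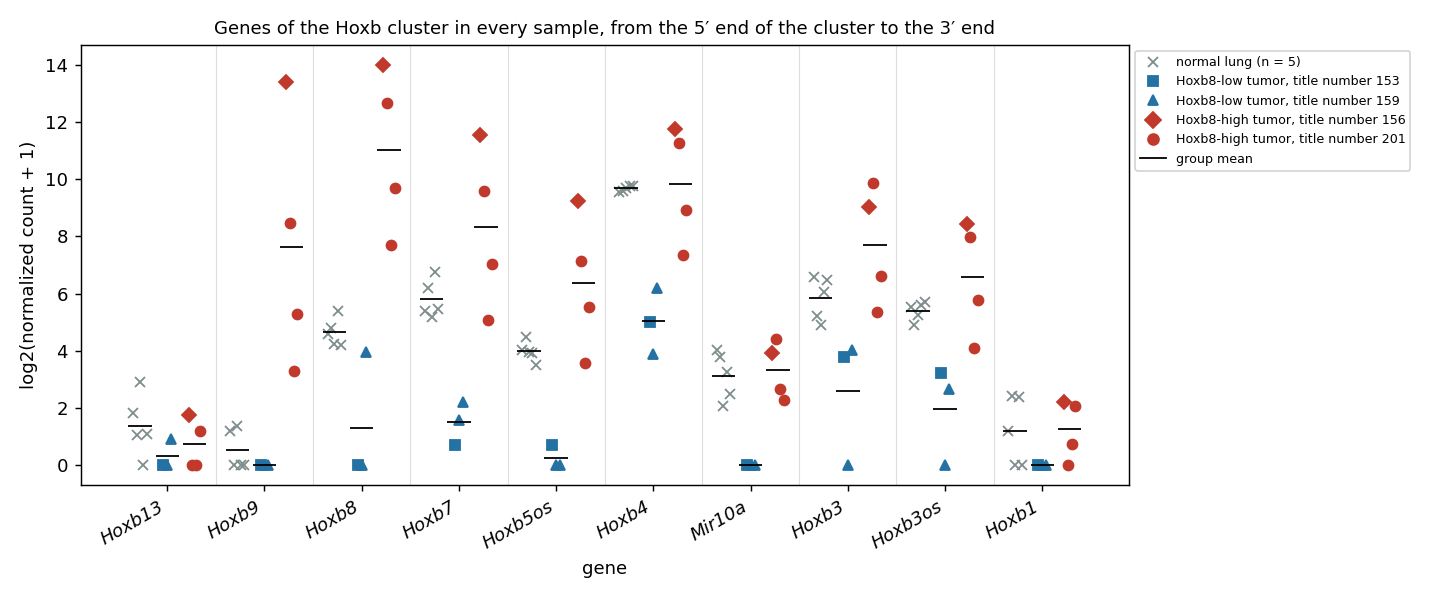
Points give log2(normalized count + 1) of each sample (vertical axis) for 10 genes of the Hoxb cluster in their order along it (horizontal axis). Crosses are normal lungs, blue points Hoxb8-low tumors, red points Hoxb8-high tumors, point shape is the title number and bars are group means. For Hoxb8 the red points lie above the normal lungs and the blue points below them, with 209 the lowest red value and 14.4 the highest blue value before taking logs, while for Hoxb4 the crosses lie among the red points.

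The order of the 4 Hoxb8-high tumors by Hoxb8 was tumor 2, tumor 5, tumor 7, tumor 6. Hoxb9, Hoxb7, Hoxb4, Hoxb5os and Hoxb3os followed the same order. Hoxb3 and Mir10a did not, since both were highest in tumor 5. The 4 tumors differed less in Hoxb4 and Hoxb3 than in Hoxb9, Hoxb8 and Hoxb7: the highest over the lowest was 93.4-fold for Hoxb7, 21.3-fold for Hoxb4 and 23.0-fold for Hoxb3. By title number, the mean of log2(normalized count + 1) of Hoxb8 was 14.00 in the tumor numbered 156, 10.03 in the 3 tumors numbered 201, 0 in the tumor numbered 153 and 1.97 in the 2 tumors numbered 159. Tumors 5 and 6 share a number and a lung title and still differed in Hoxb8 by 6523 against 209.

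To compare levels between genes, each count was divided by the gene's merged exon length in kb (GENCODE M21) and expressed as a share of the sum over Hoxb9, Hoxb8, Hoxb7, Hoxb4 and Hoxb3. Of 10 coding genes listed for the cluster 7 were in the table and the others were not analysed here, so these shares and their order hold among the 5 genes only. In normal lung Hoxb4 made up 77.2% to 89.6% of this sum per kb and Hoxb8 1.65% to 3.53%. Hoxb4 also led in the Hoxb8-low tumors, with Hoxb4 at 71.4% to 80.8% and Hoxb8 at 0 to 13.7%. In the Hoxb8-high tumors Hoxb8 led with 44.9% to 57.6%, Hoxb4 made up 9.75% to 36.0% and Hoxb7 11.7% to 14.1%. Since Hoxb8 chose the sets, its larger share in the high set is in part built in. The share of Hoxb9 per kb set tumor 2 (30.3%) apart from tumors 5, 6 and 7 (3.18%, 1.93% and 2.39%).

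The sum per kb itself was 348 to 440.3 in normal lung and 6.69 to 39.7 in the Hoxb8-low tumors. It was 13868 in tumor 2, 4297 in tumor 5, 177 in tumor 6 and 624 in tumor 7. Tumor 6 therefore had a lower sum over these 5 genes than any normal lung, and yet more Hoxb8, which made up 44.9% of its sum. For the low tumors the shares rest on few reads, such as 16 reads of Hoxb8 over the 3 libraries together.

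**Figure D2:**
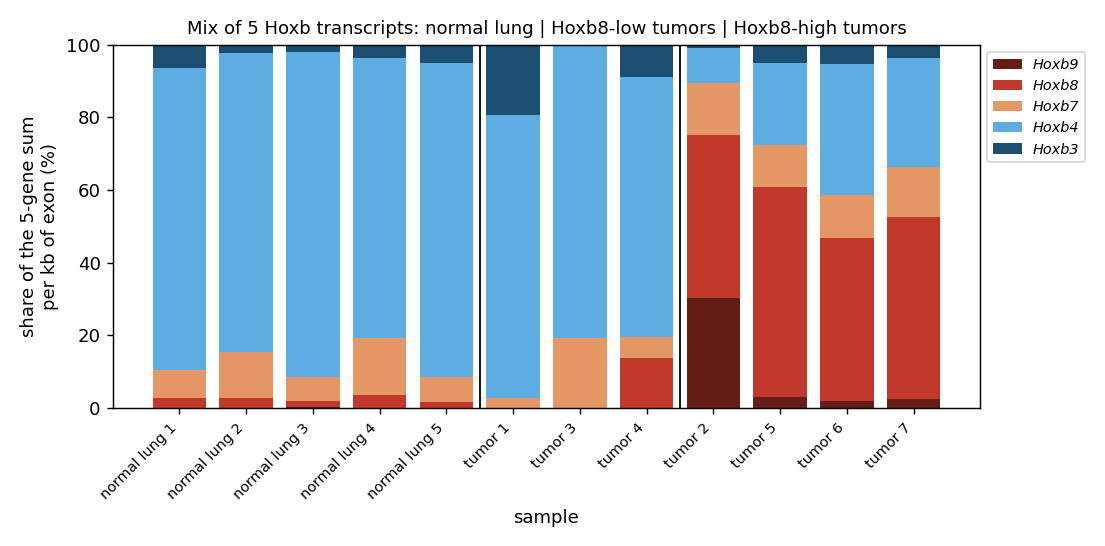
Stacked bars give, for each sample (horizontal axis), the share of 5 Hoxb genes in their summed normalized count per kb of exon (vertical axis, percent). Hoxb4 (light blue) is the largest share in the 5 normal lungs and the 3 Hoxb8-low tumors. Hoxb8 (red) is the largest in the 4 Hoxb8-high tumors, at 44.9% to 57.6%, which is in part built in because Hoxb8 chose the sets.

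Outside the Hoxb cluster, 16 further Hox genes of the lists were in the table, and 8 of them had a mean of at least 1 in the tumors. None of the 8 separated the 2 sets. Across all 23305 genes, the 4 Hoxb8-high tumors were all above the 3 Hoxb8-low tumors for 847 genes (3.63%) and all below them for 708 genes (3.04%). With quantile normalization these counts were 656 above and 906 below, so the balance between the directions turned with the scaling. Hoxd9 was the 1 Hox gene outside the cluster to exceed 100 in any tumor: it was 3.8, 153 and 55.7 in the low tumors 1, 3 and 4 and 17.9, 0.809, 11.5 and 16.7 in the high tumors. Only tumor 3 was above 100, and tumor 4, of the same title number, was at 55.7. Hoxa7 was 77.4, 7.28, 5.39 and 24.3 in the high tumors, 5.7, 0 and 10.8 in the low tumors and 153 to 422 in normal lung, so every tumor was below every normal lung. Its log2 difference was 2.07 (SE 1.12), and the sets overlapped.

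Genes on either side of the cluster on chromosome 11 had smaller differences than the 5 Hoxb genes, each with overlap. Of 12 flanking genes compared, 0 were without overlap between the sets, and their median log2 difference was 0.23, beside 0.03 over all genes. Of all genes 3.63% were without overlap above and 3.04% below, so 0 of 12 is near the general share. Next to the 5′ end, Ttll6, a tubulin glutamylase gene, had a difference of -1.71 and Calcoco2, an autophagy receptor gene, of -1.76. Next to the 3′ end, Skap1 was 511, 1128, 81.5 and 542 in tumors 2, 5, 6 and 7, 103, 6.94 and 24.2 in tumors 1, 3 and 4 and 413 to 769 in normal lung. Its log2 difference of 3.87 (SE 1.04) was the largest of the flanking genes, but tumor 6 lay below tumor 1. Skap1 is also known as an adaptor of T cells. With the leukocyte score as a covariate the difference of Skap1 was 3.85, and the part of T cells in it was not tested. Snx11 and Cbx1, the next genes out, had differences of 0.40 and 0.20.

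The comparison over all genes found none that passed. With limma and Benjamini-Hochberg adjustment over 23305 genes, 0 (0%) were called at an adjusted p under 0.05 with a log2 difference of at least 1 in size, and the smallest adjusted p was 0.887. At an unadjusted p under 0.05 there were 1283 genes. edgeR's quasi-likelihood test on whole reads of 6 tumors also called 0, with 726 at an unadjusted p under 0.05. At the same thresholds DESeq2 on these 6 tumors had 82 genes higher in the Hoxb8-high set and 44 lower. These counts include 6 genes of the Hoxb cluster, Hoxb8 among them, for which the call is no test because Hoxb8 chose the sets. These 2 count tests leave out tumor 3, and 79 of the 126 genes that DESeq2 called had no overlap over all 7 tumors. Of all 23305 genes 3.63% lay without overlap above and 3.04% below. The calls came from 6 of these 7 tumors, so the 79 are no separate check of them. Since the sets were selected on a transcript of the same libraries, these p-values describe only the libraries compared, 7 for limma and 6 for the count tests. The labels do not say that the tumors came from separate animals. Each p-value therefore sets the difference between the sets against the spread between these samples, which may not be that between animals. Adjusted p-values of all genes named below are limma's and were 0.887 or higher.

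Among the Hox cofactors, 1 of 9 genes was without overlap, beside 3.63% (above) and 3.04% (below) of all genes. Meis2, which binds DNA beside Hox and Pbx proteins, was 905, 648, 850.4 and 1581 in tumors 2, 5, 6 and 7, 69.0, 522 and 416 in tumors 1, 3 and 4 and 1163 to 1329 in normal lung. The high tumors were all above the low ones, by 1.93 on the log2 scale (SE 0.67), but much of that came from tumor 1, without which the difference was 1.01. Meis1, its close relative, was 295 to 446 in the high and 196 to 355 in the low tumors, and these ranges overlapped. Pbx3 had the lowest difference of the list, -0.70, and the list's median was 0.10.

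Of 14 retinoic acid genes that were compared, 2 were without overlap, both higher in the Hoxb8-high tumors, beside 3.63% of all genes in that direction. The median difference was 0.27, and the differences ran from -1.60 to 2.46. Of the 14 genes, 5 had a difference of at least 1 and 1 had a difference of -1 or lower. Aldh1a2 makes retinoic acid from retinaldehyde. It was 106, 121, 418 and 1239 in tumors 2, 5, 6 and 7, 27.9, 51.6 and 92.5 in tumors 1, 3 and 4 and 135 to 289 in normal lung. Tumor 7 was highest, and tumor 2, at 106, was close to tumor 4 at 92.5. The log2 difference was 2.46 (SE 0.87), and it was 1.12 with the leukocyte score as a covariate.

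Rarb encodes a retinoic acid receptor and is itself a known target of retinoic acid. It was 773, 737, 764 and 1364 in tumors 2, 5, 6 and 7, 67.7, 186 and 401 in tumors 1, 3 and 4 and 497 to 668 in normal lung. All 4 high tumors were above all normal lungs and all 3 low tumors below them, the same arrangement as for Hoxb8. How many of all genes had this arrangement was not counted, and 3.63% had the high tumors all above the low ones. A link of Rarb to Hoxb8 was not tested. The log2 difference was 2.34 (SE 0.55), 2.00 with the leukocyte score as a covariate and 1.47 without the 2 trachea-titled tumors. Rarb overlaps a gene on the opposite strand, Top2b, so some of its reads may belong to that gene.

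The other receptors did not separate the sets. Rara had a difference of 0.03 and Rarg of 1.37. Cyp26b1, which degrades retinoic acid, was 75.2 to 309 in the high and 33.7 to 104 in the low tumors (difference 1.37). Crabp1, a retinoic acid binding protein gene, was 8.34, 1065, 218 and 841 in tumors 2, 5, 6 and 7, so it was low in tumor 2 and high in tumor 5 although both had high Hoxb8. Cdx1 was under the value of 3 reads in all tumors, and Cdx2 and Cdx4 were not analysed here.

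Genes of the complexes that silence or maintain Hox clusters overlapped between the sets with 1 exception. Of all genes 3.63% were without overlap above and 3.04% below, so 1 such gene is near the general share. Of 16 Polycomb genes, 1 was without overlap: Ezh1, an H3K27 methyltransferase, was 668, 624, 677 and 833 in tumors 2, 5, 6 and 7 and 594, 516 and 594 in tumors 1, 3 and 4, a difference of 0.30 (adjusted p 0.894). Ezh2, its homolog in dividing cells, was 823 to 2656 in the high and 1538 to 1852 in the low tumors, with a difference of -0.05 (SE 0.38). The largest in size of the list was Phf19, a Polycomb accessory subunit, at -0.98, and the median was -0.05. Of 10 Trithorax and H3K27 demethylase genes, 0 were without overlap and differences ran from -0.27 (Men1) to 0.38 (Kdm6b), with a median of -0.03.

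**Figure D3:**
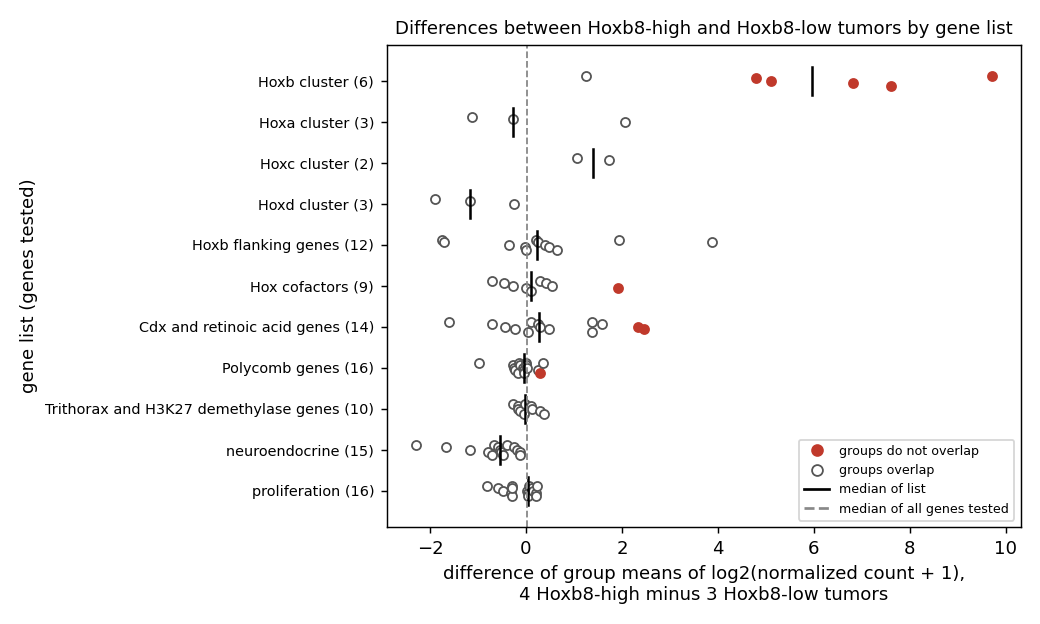
Each point is a gene, placed by its difference of means of log2(normalized count + 1), 4 Hoxb8-high minus 3 Hoxb8-low tumors (horizontal axis), within its list (vertical axis, number of genes compared in brackets). Filled points are genes whose 2 sets do not overlap, short vertical lines are list medians and the dashed line is the median of all genes, 0.03. Of the Hoxb cluster 5 of 6 genes are filled and lie between 4.79 and 9.71, and in each of the other lists plotted here at most 2 are filled. Hoxb8 is 1 of the 5 and chose the sets, so the count for its cluster is in part built in. Of all genes compared 3.63% were without overlap above and 3.04% below.

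All 15 neuroendocrine genes had a lower mean in the Hoxb8-high tumors, and for none of the 15 were the sets without overlap. Of all genes 3.63% were without overlap above and 3.04% below, so 0 of 15 is near the general share, and the median difference of all genes was 0.03. The 15 genes were measured in the same tumors, so their shared direction is not 15 separate results. The differences of the 15 ran from -2.30 (Calca, the gene of calcitonin and its related peptide) to -0.13 (Scg2 and Syp) with a median of -0.53. Chga was 14672, 23884, 26052 and 11821 in tumors 2, 5, 6 and 7 and 25012, 46924 and 58490.2 in tumors 1, 3 and 4 (difference -1.18, SE 0.40). Tumor 7 was the lowest of the 7 in Chga, and the high tumor 6 lay within the range of the low ones. Tumor 7 also had the highest scores of several other cell types, given below, and their part in these differences was not tested.

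Among the factors that mark subtypes of small cell lung cancer, Mycn was 7208 in tumor 2 and between 305 and 698 in the other 6 tumors. Tumor 2 was thus highest in Mycn as it was in Hoxb8, and the 3 other Hoxb8-high tumors lay within or near the range of the low ones. Mycl was 764 in tumor 2, the lowest of the 7, and 1619 to 3562 in the low tumors. Rest, a repressor of neuronal genes, was 83.4, 79.3, 143 and 619.9 in tumors 2, 5, 6 and 7 and 59.5, 31.7 and 77.2 in tumors 1, 3 and 4, without overlap by a small margin. Its difference was 1.55 (SE 0.74). Rest was the 1 gene without overlap of 8 compared in its list, beside 3.63% of all genes in that direction. Of 16 proliferation genes 0 were without overlap, with a median of 0.04.

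Beyond the lists, the named genes were the 12 in each direction with the smallest unadjusted p among those without overlap between the sets. None passed limma's adjusted threshold, and 16 of the 24 were called by DESeq2 on 6 tumors. These 6 tumors are among those by which the 24 genes were chosen, so the 16 calls are no separate check of them. Over all 29250 genes DESeq2 called 126, and 9890 had no adjusted p. On the same 6 tumors edgeR called 0. All 24 kept their direction in every alternative of the processing. For most alternatives this was fixed by the choice of genes without overlap. Of these 24 genes, 4 overlap another annotated gene (Mybpc1, Nr2f1, Rab3b and Gfi1).

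Nr2f1, an orphan nuclear receptor of the COUP-TF family, was 509, 740.2, 1303 and 1048 in tumors 2, 5, 6 and 7, 6.96, 73.4 and 154 in tumors 1, 3 and 4 and 109.8 to 213 in normal lung. All high tumors were above all normal lungs, and the log2 difference from the low tumors was 4.23 (SE 0.90), or 2.98 without tumor 1. Slc2a13, a myo-inositol transporter gene, was 275, 399.6, 385 and 329 in the high tumors and 10.1, 18.8 and 83.5 in the low ones (difference 3.70, SE 0.64). Its 4 high values and the 5 values of normal lung (284 to 343) overlapped. Tmem47, a membrane protein gene of cell junctions, was 183, 452, 245 and 448 in the high and 32.3, 20.8 and 55.7 in the low tumors (difference 3.17, SE 0.49).

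Tnni2, troponin I of fast muscle, was 396, 19.4, 77.5 and 379 in tumors 2, 5, 6 and 7 and 0, 0 and 0.898 in tumors 1, 3 and 4. Ryr1, a calcium release channel, was 279.9, 39.6, 179 and 411 in the high tumors and 13.3, 0 and 3.59 in the low ones. Mybpc1, a myosin-binding protein, was 158, 122, 74.8 and 508 in the high tumors and 0, 10.9 and 8.08 in the low ones. Tumor 5 or tumor 6 was the lowest of the high tumors in Tnni2, Ryr1 and Mybpc1, and tumor 2 or tumor 7 the highest. Their differences were 6.65, 5.40 and 5.12 (SE 1.05, 1.06 and 0.99). Of 8 skeletal and smooth muscle markers 0 were without overlap, beside 3.63% of all genes above and 3.04% below. The summed value of the 8 markers was 1107 to 9187 in the high and 819 to 2074 in the low tumors. The part of muscle tissue in these 3 genes was not tested.

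Trpm2, a calcium-permeable channel, was 447 in tumor 2, 186.9 in tumor 5, 931 in tumor 6 and 2211 in tumor 7, and from 10.9 to 52.5 in tumors 1, 3 and 4. Lrrk2, a kinase, was 72.7, 143, 169.8 and 752 in the high tumors and 11.4, 7.93 and 32.3 in the low ones. Pou2af1, a coactivator of POU factors in B cells, was 105, 602, 76.8 and 259 in the high tumors and 15.2, 21.8 and 22.5 in the low ones. Trpm2 and Lrrk2 were thus highest in tumor 7 and Pou2af1 in tumor 5. Clic5, an intracellular chloride channel family member, was 161, 336, 253 and 1198 in the high tumors and 24.1, 11.9 and 71.8 in the low ones. In normal lung Clic5 was from 17751 to 27237, above every tumor. Flt4, the receptor of lymphatic growth factors, was 208 to 346 in the high and 41.6 to 105 in the low tumors, and Cd93, of endothelial and myeloid cells, was 579 to 1555 and 165 to 391. With the leukocyte score as a covariate the log2 difference was 3.23 instead of 4.40 for Trpm2 and 2.31 instead of 3.64 for Lrrk2. It was 2.43 instead of 3.65 for Clic5 and 1.23 instead of 1.85 for Cd93. The change was smaller for Pou2af1, at 2.996 instead of 3.207, and for Flt4, at 1.73 instead of 1.97.

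In the lower direction, Rab3b, a GTPase of secretory vesicles, was 417, 712, 519.6 and 362 in tumors 2, 5, 6 and 7 and 1430.1, 1681 and 1288 in tumors 1, 3 and 4. Normal lung was from 21.5 to 32.2, so both sets were above it, the low set by more. The log2 difference between the sets was -1.58 (SE 0.28). Sstr5, a somatostatin receptor, was 1.19, 10.5, 4.04 and 9.61 in the high tumors, 50.6, 96.2 and 73.6 in the low ones and 0 to 2.15 in normal lung, a difference of -3.57 (SE 0.70). Ly6h, a surface protein gene known from brain, was 1209 to 2313 in the high and 3545 to 4480.3 in the low tumors, with a difference of -1.22.

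Irx2, a homeodomain factor gene of another family, was 401, 287, 489 and 571 in tumors 2, 5, 6 and 7, 1677, 1616 and 777 in tumors 1, 3 and 4 and 1648 to 1877 in normal lung. It was lower in the 4 high tumors than in normal lung and in the low tumors, with a log2 difference of -1.60 from the low ones (SE 0.36). Gfi1, a zinc finger repressor gene expressed in neuroendocrine cells, had a difference of -2.17. Scnn1a, a subunit of the epithelial sodium channel, was 126, 729, 574 and 148 in the high tumors and 4143, 1850.0 and 1472 in the low ones. Lor, known as an envelope protein of skin, was 124, 543, 375 and 263 in the high tumors and 1909, 1059.8 and 1653 in the low ones. Hhatl, Cttnbp2, Rapgefl1 and Tprn had differences of -1.89, -1.36, -1.58 and -1.12. In the high tumors Rapgefl1 was from 138 to 161 and Tprn from 259 to 293, both within narrow ranges near those of normal lung (78.5 to 194 and 268 to 373).

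**Figure D4:**
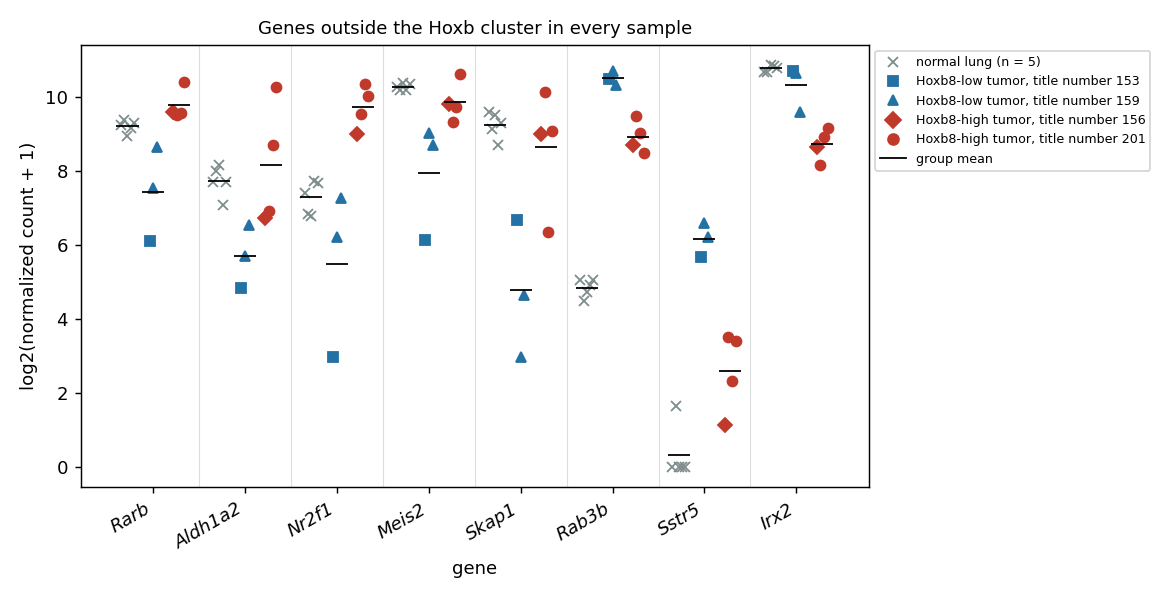
Points give log2(normalized count + 1) of each sample (vertical axis) for 8 genes outside the Hoxb cluster (horizontal axis), picked after their values were seen. Crosses are normal lungs, blue points Hoxb8-low tumors, red points Hoxb8-high tumors, point shape is the title number and bars are group means. Red and blue points do not overlap in 7 of the genes and overlap in Skap1, where tumor 6, at 81.5 before taking logs, is below tumor 1.

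Most markers of other cell types overlapped between the sets, and limma called none. Of 12 leukocyte genes 2 were without overlap, Ptprc and Cd79a, both higher in the Hoxb8-high tumors, with a list median of 2.43. Of all genes 3.63% were without overlap in that direction and 3.04% in the other. The summed leukocyte value was 939 to 93665 in the high and 538 to 4396 in the low tumors. Tumor 2, the tumor with most Hoxb8, had a sum of 939, less than the 3034 and 4396 of the low tumors 1 and 4. The leukocyte sum was highest in the 3 tumors numbered 201, and of these in tumor 7. None of the 12 markers was at 0 in a whole set, and in tumor 2 the T cell genes Cd3e and Cd8a were each at 0.

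Of 10 endothelial genes, Cdh5 and Cldn5 were higher and Vwf lower in the Hoxb8-high tumors without overlap. Over all genes the shares without overlap were 3.63% above and 3.04% below. The summed endothelial value was 2987 to 8693 in the high and 3141 to 7683 in the low tumors. Vwf, von Willebrand factor, was 836, 730.5, 640.2 and 1395 in tumors 2, 5, 6 and 7 and 6522, 2106 and 2762 in tumors 1, 3 and 4 (difference -1.97, SE 0.43), against the direction of Cdh5 at 1.58. Of 13 lung epithelial genes 1 was without overlap, Hopx, of alveolar type 1 cells (75.1 to 446 in the high tumors, 20.8 to 66.5 in the low ones and 13920.3 to 34395 in normal lung). Surfactant gene Sftpc was 454, 539, 337 and 9.61 in tumors 2, 5, 6 and 7 and thus at the level of the low tumors in tumor 7.

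Of 5 erythroid genes 1, Hbb-bt, was without overlap, higher in the high set, beside 3.63% of all genes in that direction. The summed erythroid value was 373 to 13210.0 in the high and 94.3 to 538 in the low tumors, with the highest sum in tumor 2. No gene of the cardiac muscle, adipocyte, fibroblast, cartilage or peripheral nerve lists was without overlap. Tumor 7 had sums of 41997 for 8 cardiac and 12761 for 6 adipocyte genes, beside at most 3079 and 1907 in the other 6 tumors. The 4 Y-linked genes were at 0 in all 4 Hoxb8-high tumors, and their sum was 2536, 1.98 and 8.08 in the low tumors 1, 3 and 4. Uty and Kdm5d were counted among the genes without overlap through values under that of 3 reads in tumor 3. The part of these cell types, and of sex, in the differences between the sets was not tested.

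**Figure D5:**
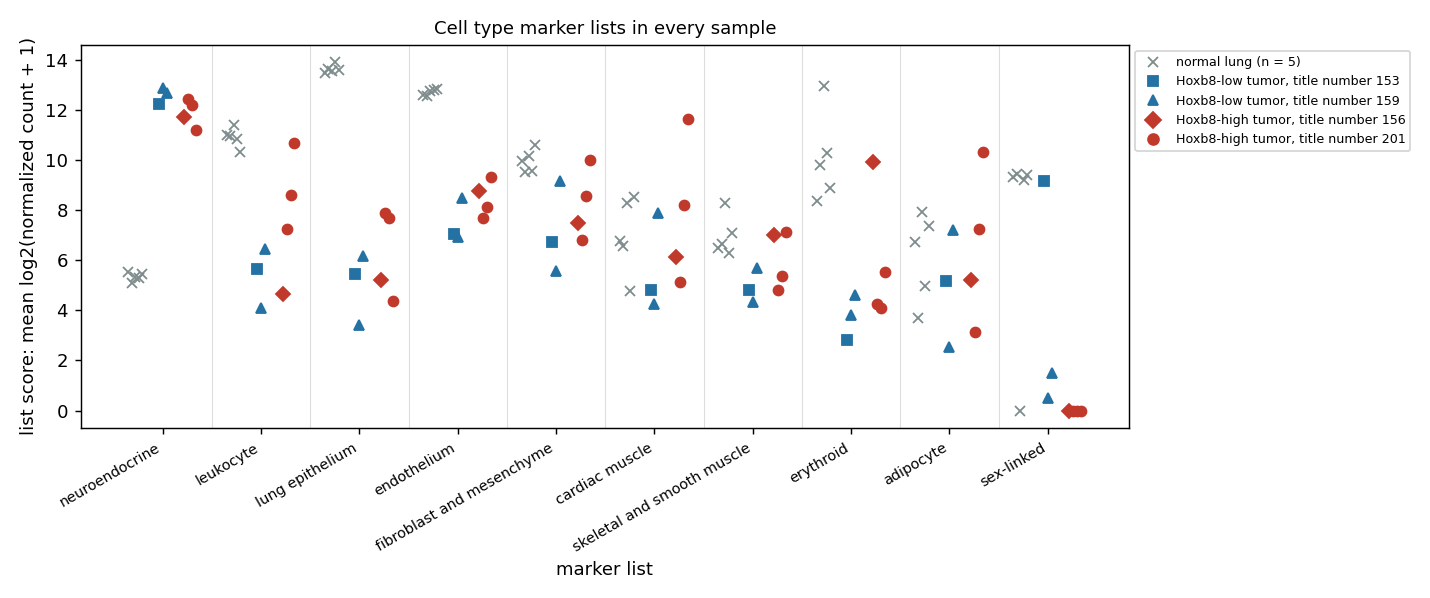
Points give the mean of log2(normalized count + 1) over the genes of a list (vertical axis) in each sample, for 10 lists (horizontal axis). Crosses are normal lungs, blue points Hoxb8-low tumors and red points Hoxb8-high tumors, and point shape is the title number. The neuroendocrine score is high in all tumors, the leukocyte score is highest among tumors in tumor 7 (10.67), and the erythroid score is highest among tumors in tumor 2 (9.90).

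The tumor suppressor genes Trp53 and Rb1 overlapped between the sets. Trp53 was 871 to 1712 in the high and 859.7 to 1447 in the low tumors, and Rb1 was 286 to 462 and 383 to 441. A transcript level does not show whether a gene carries an edit, and the labels name none.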

How the data were processed

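RNA from 7 tumors and 5 normal lungs was selected by poly-A tails and sequenced in paired reads, per the labels' protocols. The submitters' processing notes name featureCounts, DESeq2 and GRCm39, without roles or versions. The values deposited by the authors are read counts divided by a factor of each sample (unit: normalized count, a signal), so totals still differ and long genes count more. In every column 100% of values were whole multiples of the column's smallest step within 0.01, which gave reads and depth. The aligner and the use of strand in counting are not given in the sources used here. The table lists 30399 genes by Ensembl identifier; GENCODE M21 named 29982 and left 417 unnamed.

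Members and gene lists were chosen with earlier results of these data known. The 4 and 3 tumors were compared by limma 3.58.1 in R 4.3.3 (trend, Benjamini-Hochberg) on log2(normalized count + 1) over the 23305 genes with a mean of at least 1; a call needed an adjusted p under 0.05 and a log2 difference of at least 1. This scale understates the change of low genes. Raw counts would have been fitted with edgeR instead; edgeR 4.0.16 and DESeq2 1.42.0 were run on whole reads of 6 tumors as alternatives. Tumor 3 was left out of them because its step was close to 1 and was not declared as giving whole reads. Its values were still whole multiples of that step in 100% of cases, so leaving it out was a choice of setting. The low set of these count tests was smaller for it. The fit was also run on simulated counts of independent libraries with 1 common dispersion. That run does not show its power or error where tumors share a title number. Figures used Python 3.11.15 with matplotlib 3.10.9.

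Genes are named if they are in the lists or, in each direction, among the 12 with the smallest unadjusted p that do not overlap between the sets, have a mean log2 value of at least 4 and carry a symbol that does not begin with Gm or end in Rik. None passed the adjusted p that the rule asked for first. Hoxb genes were kept out of that ranking because they get no test. Of 266 list entries 233 were found in the table; the others were not analysed here. Alternatives changed the pseudocount (0.1 and 10), the filter on low values (none and 10), the scaling, the handling of shared title numbers, the covariates and the samples. The values of some single list members are not reported here.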

Additional observations from a re-analysis of the deposited data

Results flagged for a closer look

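In 8 of 120 groups of values examined, 1 sample lay apart from the others of its group by the gap to its nearest neighbour relative to the group's range, and chance gives about 6 such groups. All values here are on the scale of log2(normalized count + 1), and a score is the mean of a list on that scale. Among the tumors, Meis2 was lowest in tumor 1 at 6.13, which is the tumor that carries much of the difference between the sets in that gene. The erythroid score was highest in tumor 2 at 9.90, the tumor with most Hoxb8 and Hoxb9. The score of the Y-linked genes was highest in tumor 1 at 9.14, the 1 tumor with these genes at the level of 4 of the normal lungs. Among the normal lungs, normal lung 3 stood apart in 4 values: Mybpc1 was highest there at 6.27, Clic5 lowest at 14.12, the proliferation score highest at 7.52 and the Y-linked score lowest at 0. Sstr5 was at 1.66 in normal lung 2 and 0 in the other 4, but that value is under the value of 3 reads in that library, so no order is read from it.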

How the results depend on the processing

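No setting of limma or edgeR called a gene. With DESeq2 on 6 tumors the Hoxb8-high set was higher in 82 genes and lower in 44. The counts of genes without overlap between the sets, 847 above and 708 below, rose where fewer values were compared: to 3302 and 2791 with 1 mean per title number, to 2438 and 2358 without the trachea-titled tumors, and to between 1024 and 2490 above and between 948 and 2140 below when 1 tumor was left out. Of the single omissions, that of tumor 2 gave the highest counts (2490 and 2140), and fewer samples separate more easily by construction. With quantile normalization the counts were 656 above and 906 below, which turned the balance between the directions, and the cause was not tested. No difference of a named gene reversed in 627 pairs of value and setting. For genes chosen for not overlapping, most settings, such as leaving out a tumor or changing the pseudocount, could not reverse the direction. In 16 pairs, all with DESeq2, a gene passed that did not pass in limma, and Hoxb9 moved in 2, to 14.85 with edgeR and 14.33 with DESeq2, since its low tumors hold no reads. With tumors of 1 number allowed to correlate, no gene was called and 467 had an unadjusted p under 0.05. No paired analysis was possible because the 2 sets share no title number and replicate numbers only name the samples. Depth limits the low genes: 3 reads are worth up to 3.57 in tumors. Title number, set and animal of origin cannot be told apart.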

Other observations

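The 6 genes given here are outside the lists and come from a longer set picked after their values were seen among the DESeq2 calls. They stand for no group of genes, and the others of that set are not reported here. Cdh1, Esrp1 and Krt8 were each highest in tumor 1 among the 7 tumors. The cadherin gene Cdh1 was 4858 in tumor 1, 51.6 and 244 in the other Hoxb8-low tumors, 109.6, 229, 228 and 68.5 in tumors 2, 5, 6 and 7 and 6378 to 8042 in normal lung. The splicing factor gene Esrp1 was 3647 in tumor 1, 0 and 66.5 in tumors 3 and 4 and 7.69 to 45.3 in the high tumors, and the keratin gene Krt8 was 1852 in tumor 1 and 27.4 to 97.0 in the other 6. Tumor 3 was absent from the DESeq2 fit, so tumor 1 made up 1 of its 2 low tumors.

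Xcr1, Clec9a and H2-Ab1 were each higher in the 3 tumors numbered 201 than in the other 4 tumors. The chemokine receptor gene Xcr1 was 2.38 in tumor 2, 112, 508 and 1376 in tumors 5, 6 and 7 and 0 to 1.8 in the low tumors. Clec9a, a receptor for dead cells, was 25.0 in tumor 2, 328, 1671 and 3905 in tumors 5, 6 and 7 and 4.43 to 19.8 in the low tumors. For both genes tumor 7 was highest and tumor 5 lowest of the 3, while Hoxb8 was highest in tumor 5. The class II gene H2-Ab1 was 48.8 in tumor 2, within the 23.8 to 393 of the low tumors, and 1964, 9204 and 40544 in tumors 5, 6 and 7.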
